A study of Mus musculus with 17 samples.

Results

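Described here are 39 genes of the unfolded protein response and of protein folding in the endoplasmic reticulum (ER), chosen by symbol from the 15355 genes of the deposited table. All 39 were found. They comprise 5 sensors and transcription factors, 6 targets of the PERK and ATF4 branch, 9 genes of the BiP (Hsp70) system, 3 Hsp90 and lectin chaperones, 6 genes of disulfide bond formation, 7 of ER-associated degradation (ERAD) and 3 of protein translocation into the ER. The RNA was pulled down with tagged ribosomes from the mediobasal hypothalamus of POMC RiboTag mice. POMC (pro-opiomelanocortin) cells of the arcuate nucleus curb food intake, and in RiboTag mice a recombinase switches on an HA-tagged ribosomal protein, so that an antibody enriches RNA under translation in the tagged cells. The dams, themselves POMC RiboTag females, received from 6 weeks of age either standard chow or food with 45% fat (high-fat diet, HFD), were mated after 4 weeks and kept their diet until postnatal day 21 (P21). The offspring gave 5 chow and 5 HFD libraries at postnatal day 0 (P0) and 3 chow and 4 HFD libraries at P21, 17 in all. The label of each library names a biological replicate number and no litter, animal, pool, sex or batch, and the labels name no driver line. The p-values therefore measure the spread between these libraries.

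The ER is where secreted and membrane proteins fold, and neurons that release peptide hormones pass large amounts of precursor through it. When unfolded protein builds up there, 3 membrane sensors respond. PERK (Eif2ak3) slows translation and favours synthesis of the transcription factor ATF4, IRE1 (Ern1) splices the messenger of the transcription factor XBP1, and ATF6 is cut to release a transcription factor of its own. ATF6 and XBP1 raise chaperones, disulfide isomerases and degradation factors, while ATF4 raises amino acid synthesis genes and CHOP (Ddit3). Reads counted per gene do not show splicing of Xbp1 or cleavage of ATF6.

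Depth, taken as the whole reads back-calculated from the deposited values and summed over the genes of the table, ranged from 22.4 to 37.1 M per library. Values are the authors' normalised signal in CPM-like units (reads scaled to library size), in which 1 read was worth 0.0275 to 0.0460 units, and a value of 0 allows up to 0.0826 to 0.138 units (3 reads, counting error only). Pomc stood at 146, 224, 657, 891 and 1308 in chow P0 replicates 1 to 5 and at 90.7, 246, 102, 181 and 1057 in HFD P0 replicates 1 to 5. At P21 it stood at 4679, 3878 and 12069.6 in chow and at 9818, 8268, 7460.1 and 8528 in HFD. Markers of other cells were present in every group: the summed signal of 12 oligodendrocyte genes, none of them at 0 in any library, was 439 to 1060.1 in chow P0, 339.8 to 464 in HFD P0, 8294 to 18430.4 in chow P21 and 4030.0 to 7395 in HFD P21.

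Libraries at P0 differed widely in the level of the ER genes. The summed signal of the 39 genes was 3422, 3413, 4510.2, 4759.9 and 5792 in chow P0 replicates 1 to 5 and 3152, 3512, 3233, 3283 and 5525 in HFD P0 replicates 1 to 5. HFD replicate 5 stood above the other 4 HFD libraries in 24 of the 39 genes, Hspa5, Hsp90b1 and Pdia6 among them, and below them in 5, Atf4 and Ddit3 among them. The same count was not made over all genes, so whether it is particular to the ER genes is not known. Secretory granule genes and heat-shock genes were higher in chow replicates 3, 4 and 5 and HFD replicate 5: 10 granule genes summed to 2632, 2641, 3754, 4054 and 4917 in chow P0 and to 2767, 2565, 2753, 2732 and 5244 in HFD P0, and 10 heat-shock genes to 4359, 4348, 5403, 5650.4 and 6831 and 4283, 4380.3, 4104, 3721 and 6603. Pomc, given above, was also highest in chow replicates 3, 4 and 5 and HFD replicate 5. In bulk RNA of this kind, fewer cells of a type and less RNA per cell cannot be told apart, and the part of tagged-cell RNA in the levels of the ER genes was not tested.

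**Figure D1:**
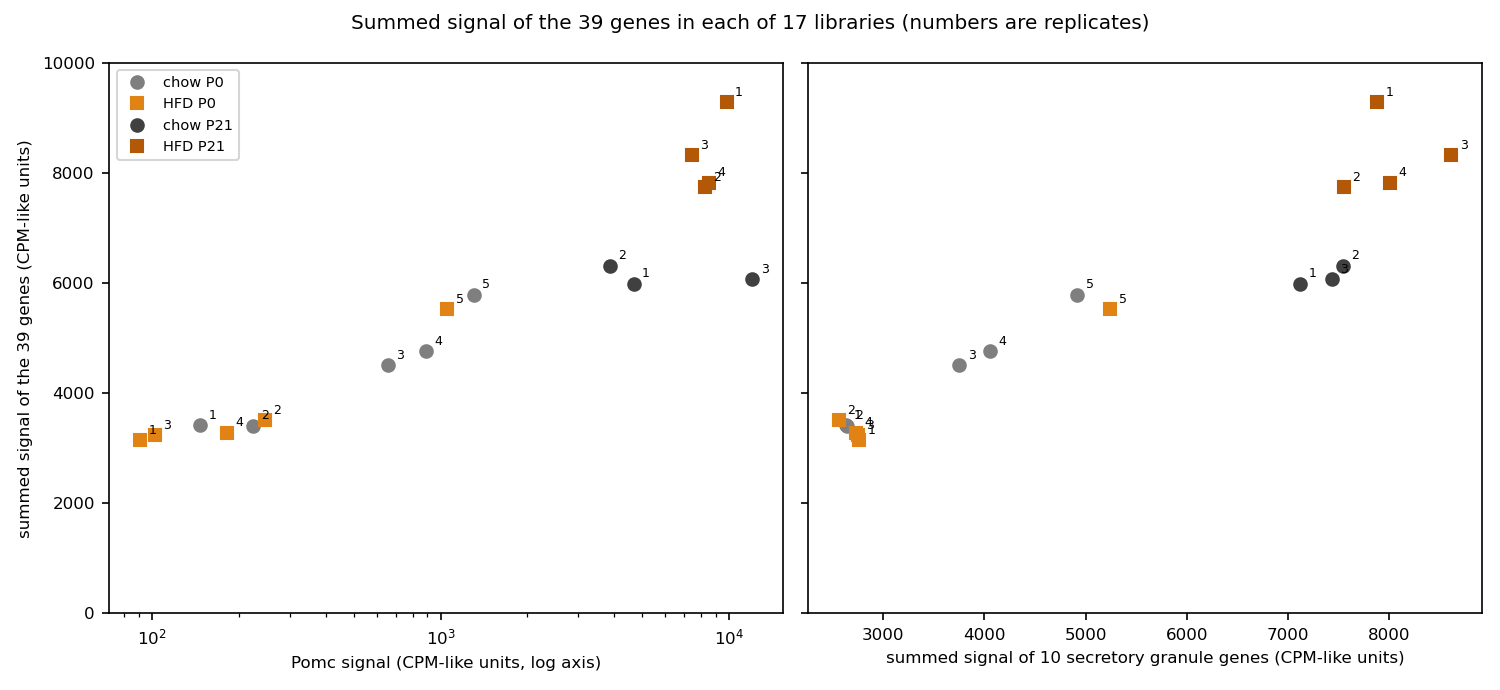
Summed signal of the 39 ER genes (CPM-like units, vertical axis) in each of the 17 libraries against Pomc (log axis, left) and against the sum of 10 secretory granule genes (right), with replicate numbers beside the points. At P0 chow replicates 3, 4 and 5 and HFD replicate 5 lie at sums of 4510 to 5792 and the other 6 libraries at 3152 to 3512, whereas at P21 the HFD libraries (7750 to 9284) lie above the chow libraries (5990 to 6320).

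Per kilobase of exonic length (GENCODE M21, GRCm38), the most abundant members were for the most part chaperones and isomerases, with the channel subunit Sec61b among the first 5 at P0. In chow P0 the order of the mean levels began with Calr (157 units per kb), Pdia3 (128), Sec61b (101), Hspa5 (92.3) and P4hb (86.2). In HFD P21 it began with Hspa5 (308), Pdia3 (259), Calr (227), Hsp90b1 (209) and Canx (169). The sensors themselves were far lower, at 2.96 units per kb for Eif2ak3, 1.81 for Atf6 and 0.149 for Ern1 in chow P0. Their transcription factors were higher, with Xbp1 at 43.2 and Atf4 at 44.2 units per kb in the same group. All 39 genes were matched to the annotation. Of these, 12 share exonic bases with another gene and 2 share more than 10%: Hsp90b1 (15.7%, with 1810014B01Rik) and Ddit3 (10.9%, with Mars), both on the opposite strand. Whether the counting used strand is not given in the sources used here, so reads in those stretches cannot be assigned to either gene.

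**Figure D2:**
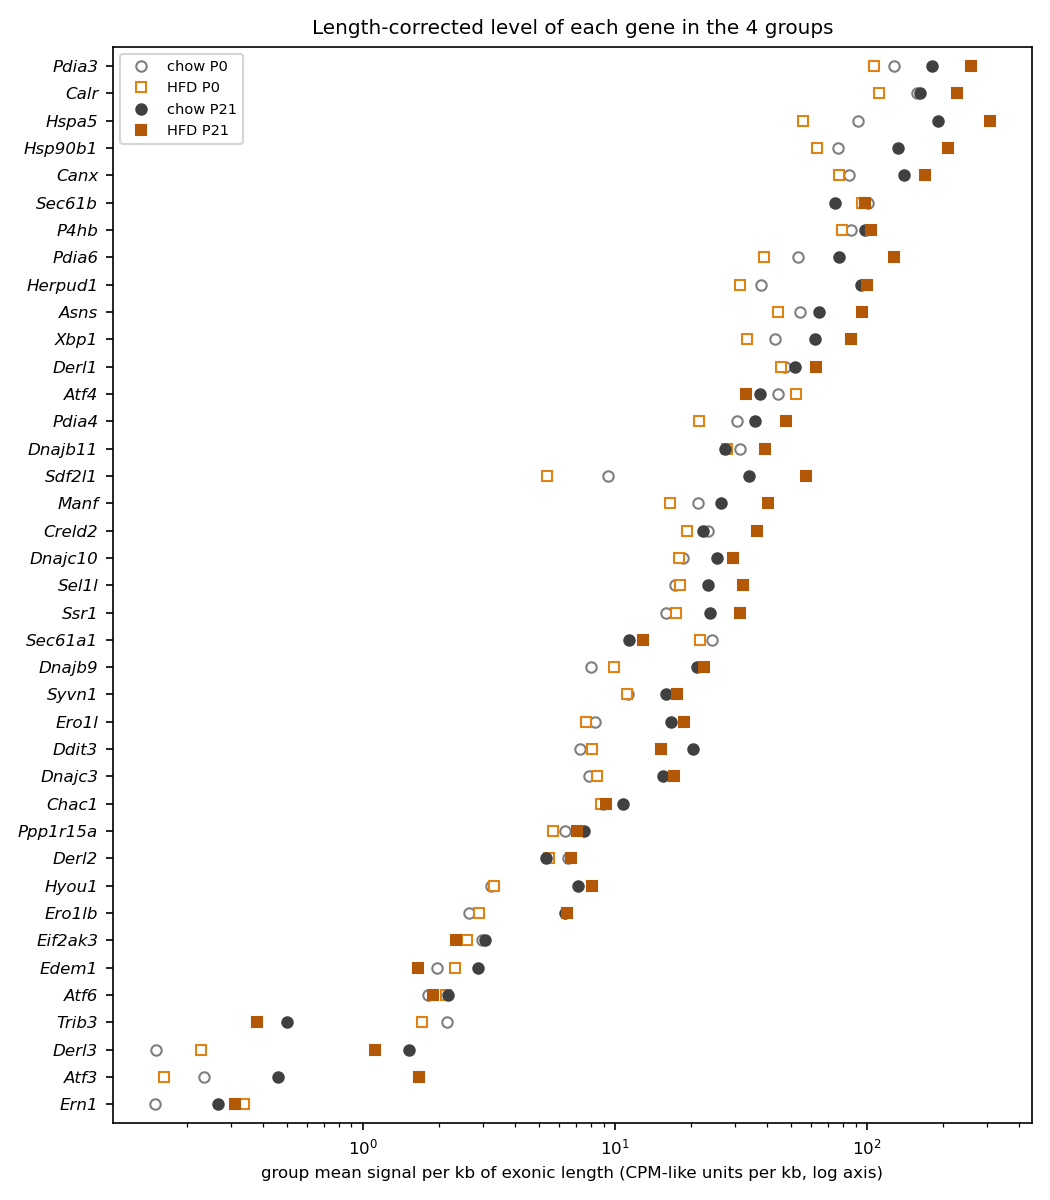
Group mean signal per kilobase of exonic length (CPM-like units per kb, log axis) of each of the 39 genes, ordered by the mean of the 4 groups; open symbols are P0, filled symbols P21, circles chow and squares HFD. Chaperones and isomerases such as Hspa5 (308 in HFD P21) are among the highest and Ern1, Atf3 and Derl3 at the bottom, and Sdf2l1 spans the range from 5.38 in HFD P0 to 57.4 in HFD P21.

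Some chaperone genes carry a known DNA element in their promoters, shown here for members described below. The ER stress element (ERSE), read as CCAAT and CCACG with 9 bases of any kind between them, is bound by NF-Y together with ATF6 or XBP1. It was searched on both strands in the 250 bases upstream of the RefSeq start (GRCm38.p6), where 34 of the 39 members have a promoter entry. It was present in 10 of these 34 (29.4%) and in 18 of the 15375 promoters of all genes (0.117%). The ERSE-II form, ATTGG and CCACG with 1 base between them, was found in Herpud1 alone among members and in 6 promoters of all genes (0.0390%). TGATGNAA, an element bound by ATF4 with C/EBP partners, was found in Asns, Atf3, Chac1 and Herpud1 (11.8% of members with an entry, 2.00% of all promoters). The 8-base UPRE core TGACGTGG was in none of the 34 and in 0.683% of all promoters. None of these motifs overlapped another in the stretches printed. Those of Hspa5 and Asns lie within the gene by GENCODE M21, and with flanks of 20 bases they reached one of its exons. They are printed with shorter flanks. The stretches below are written 5′ to 3′ along the gene's strand, with each match in capitals.
Hspa5 (chr2:34772020-34772048, plus strand, ERSE): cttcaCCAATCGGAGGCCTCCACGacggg
Pdia6 (chr12:17266471-17266529, plus strand, ERSE): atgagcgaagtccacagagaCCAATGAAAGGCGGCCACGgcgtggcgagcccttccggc
Hsp90b1 (chr10:86705513-86705676, minus strand, ERSE at 2 places): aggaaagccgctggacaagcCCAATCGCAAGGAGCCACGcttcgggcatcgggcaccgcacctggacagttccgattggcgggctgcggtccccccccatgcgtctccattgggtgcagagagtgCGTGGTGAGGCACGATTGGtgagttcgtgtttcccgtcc
Calr (chr8:84847055-84847113, minus strand, ERSE): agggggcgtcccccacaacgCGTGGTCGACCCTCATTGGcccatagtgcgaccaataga
Canx (chr11:50325780-50325838, minus strand, ERSE): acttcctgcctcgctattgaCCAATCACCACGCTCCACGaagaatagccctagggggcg
Creld2 (chr15:88819500-88819558, plus strand, ERSE): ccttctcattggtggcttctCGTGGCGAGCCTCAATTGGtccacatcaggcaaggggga
Dnajc3 (chr14:118937807-118937865, plus strand, ERSE): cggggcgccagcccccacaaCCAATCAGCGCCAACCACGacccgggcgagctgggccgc
Herpud1 (chr8:94386297-94386407, plus strand, TGATGNAA and ERSE-II): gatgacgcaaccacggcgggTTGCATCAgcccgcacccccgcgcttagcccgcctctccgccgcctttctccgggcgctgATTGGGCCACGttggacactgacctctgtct
Asns (chr6:7693220-7693237, minus strand, TGATGNAA): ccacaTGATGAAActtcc
Derl3, Ero1lb and Syvn1 also hold an ERSE. Atf6, Hyou1, Manf, Derl1 and Sec61a1 had no entry.

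Members with and without an ERSE match are set side by side as a description, with no test of the difference. The sensors, transcription factors and ATF4-branch genes with an entry were all without a match, so the sets differ in role as well. At P21 the log2 difference of HFD from chow had a median of 0.38 over the 10 with a match and 0.17 over the 24 without. The ranges overlapped, at -0.33 to 0.71 with a match and -0.78 to 1.17 without. From P0 to P21 the medians were 0.78 against 0.44 in chow (10 and 23 genes tested) and 1.13 against 0.80 in HFD (10 and 24). At P0 they were -0.27 over 9 with a match and -0.12 over 23 without. Sdf2l1, which has no match, had the largest difference between ages among all members on the scale of log2(signal + 1).

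The comparison of HFD with chow at P21 asks how the dam's diet bears on these genes at weaning. The ER chaperones stood higher in HFD offspring, by amounts that did not pass the test over all genes. The summed signal of the 39 genes was 5989.6, 6319.6 and 6069 in chow and 9284, 7750.1, 8320.2 and 7828 in HFD, with no overlap and a ratio of means of 1.35. No member passed limma's test at an adjusted p of 0.05, where 25 of 14070 genes tested did (0.178%), and edgeR called none either, where it called 13 genes (0.0862%). At an unadjusted p under 0.05, 15 members were higher and 1 was lower, against 7.84% and 9.17% of all genes. In 13 members every HFD library was above every chow library, and in 2 (Edem1 and Derl3) every HFD library was below, against 8.34% and 7.78% of all genes. The median log2 difference (of signal + 1, as for all log2 differences here, which are given ± SE) of the members was 0.22, and that of all genes tested -0.02. By role, all 9 genes of the BiP system (median 0.52), all 3 Hsp90 and lectin chaperones (0.49), all 6 disulfide genes (0.27) and all 3 translocation genes (0.38) lay above 0, but only 1 of 5 sensors and transcription factors (-0.17) and 2 of 6 ATF4-branch genes (-0.15). Pdia6 came nearest to the threshold, with an adjusted p of 0.0502. It passed with a value minimum of 5 (adjusted p = 0.0454, where 0.305% of genes passed) and, together with Hspa5, with a robust prior (0.0370 and 0.0439, 0.299% of genes). Scaling each library to a fixed sum moved the members' median to 0.15 and the share of higher genes among those called from 56.0% (14 of 25) to 37.1% (13 of 35), with no member past the threshold.

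Other gene groups moved with the ER genes at P21. Of 10 heat-shock genes, which encode chaperones outside the ER (Hspd1 and Hspe1 those of mitochondria), 9 lay above 0 with a median of 0.54. Among them Hsph1, an Hsp110 co-chaperone, rose in HFD, from 213, 262 and 319.9 to 619, 473, 564 and 567 (log2 difference 1.08 ± 0.16, adjusted p = 0.0238). That call was lost without chow replicate 2 or HFD replicate 1, 3 or 4 (0.0541 to 0.102), with edgeR (0.0517), with no intensity trend in the fit (0.132) and with all 4 groups in one fit (0.156). Of 9 immediate-early genes 8 lay above 0 (median 0.53), and Junb rose by 1.14 on the log2 scale (adjusted p = 0.0412). The call of Junb was lost without chow replicate 1 or 2 or any single HFD replicate (0.0642 to 0.151), with edgeR (0.0750), with no filter on low values (0.0527), with no intensity trend (0.115) and with all 4 groups in one fit (0.121). Markers of astrocytes, oligodendrocytes, microglia and endothelium lay below 0 in HFD: 9 of 9 astrocyte genes (median -0.87, summed signal 1512 to 2072 in chow and 645 to 1207 in HFD), 12 of 12 oligodendrocyte genes (-1.10, sums above), 10 of 10 microglial genes (-0.87, 278 to 456 and 162 to 231) and 8 of 8 endothelial genes (-1.14, 98.4 to 144 and 42.1 to 73.8). None of these markers was at 0 in a P21 library, and Gjb6, an astrocyte connexin, passed the test (-1.31, adjusted p = 0.0328, 0.0711 to 0.148 without chow replicate 2 or 3 or HFD replicate 1, 2 or 4). The call of Gjb6 was also lost with edgeR (0.0659), with no intensity trend (0.132) and with all 4 groups in one fit (0.119). Choroid plexus and ependymal genes were mixed, with 5 of 7 below 0 and 2 above (median -0.51). Of 8 general neuron genes 6 lay below 0 and 2 above (median -0.14). Granule genes had a median of 0.25 (9 of 10 above 0). Of the POMC-neuron markers, Cartpt rose by 1.91 (adjusted p = 0.0137), a call lost with no intensity trend in the fit (0.0875) and with all 4 groups in one fit (0.137). Pomc did not pass (log2 difference 0.49 ± 0.31, adjusted p = 0.447) and its highest P21 library was chow replicate 3. Without that library Pomc was higher in HFD by 0.99 (adjusted p = 0.0498). The part of cell composition in the ER gene differences was not tested.

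At P0 the comparison asks the same of newborns, and none of the members tested separated the diets. Of 37 members tested (Atf3 and Derl3 were too low), none passed the test, against 41 of 14086 genes (0.291%, 40 of them lower), and edgeR called no member, where it called 33 genes (0.219%). At an unadjusted p under 0.05, 1 member was higher and 4 were lower, against 3.87% and 5.41% of all genes. The diets overlapped in every member tested (of all genes, 0.738% were higher and 1.71% lower in HFD with no overlap). The median log2 difference was -0.15, with 26 below 0 and 11 above, and that of all genes -0.002. The largest differences below 0 were those of Hspa5 (-0.77 ± 0.35, adjusted p = 0.51) and Sdf2l1 (-0.68 ± 0.27, adjusted p = 0.438). Without HFD replicate 5 the median was -0.26, and again no member passed (135 genes did). That fit kept chow replicates 3, 4 and 5, which like the library left out were high in Pomc and the ER genes. Diet and this difference between libraries cannot be told apart there.

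From P0 to P21 more of the ER genes rose than fell in both diets. In chow offspring 15 of 38 members tested rose and 3 fell, where 18.3% of all genes tested rose and 17.7% fell (5251 of 14549 either way, 36.1%). The members' median log2 difference was 0.49, and that of all genes -0.01. In HFD offspring 27 of 39 rose and 3 fell, where 24.7% of all genes rose and 26.2% fell (7250 of 14245, 50.9%), with a median of 0.89 for the members and -0.05 for all genes. The 15 that rose in chow all rose in HFD, as did 12 others: Asns, Atf3, Calr, Creld2, Derl1, Dnajb11, Manf, Pdia3, Pdia4, Pdia6, Sel1l and Syvn1. Trib3 and Sec61a1 fell in both, Atf4 fell in HFD and Sec61b in chow. The remaining 8 passed in neither diet (Atf6, Chac1, Derl2, Edem1, Eif2ak3, Ern1, P4hb and Ppp1r15a). edgeR on the recovered reads called 15 rises and 3 falls in chow (16.4% and 15.8% of all genes) and 24 and 2 in HFD (22.0% and 22.5%). The mean summed signal of the members rose from 4379 to 6126 units in chow (1.40-fold) and from 3741 to 8296 in HFD (2.22-fold), while that of the 10 granule genes went from 3600 to 7363 and from 3212 to 8013. Markers of the tagged and of other cells differed with age as well: the mean sum of 8 POMC-neuron markers was 8.04 times higher at P21 in chow and 19.4 times in HFD, and that of the oligodendrocyte genes 21.8 and 13.95 times. Pomc made up most of the POMC-neuron sum: of the 8 markers, 3 rose and 1 fell in chow (median 0.50), and 6 rose and none fell in HFD (median 1.69). The part of these markers in the age differences was not tested. Scaling each library to a fixed sum moved the median of all genes in HFD to -0.21 and that of the members to 0.72. On that scale 38.4% of the genes called in HFD were higher, against 48.6% on the deposited scale.

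**Figure D3:**
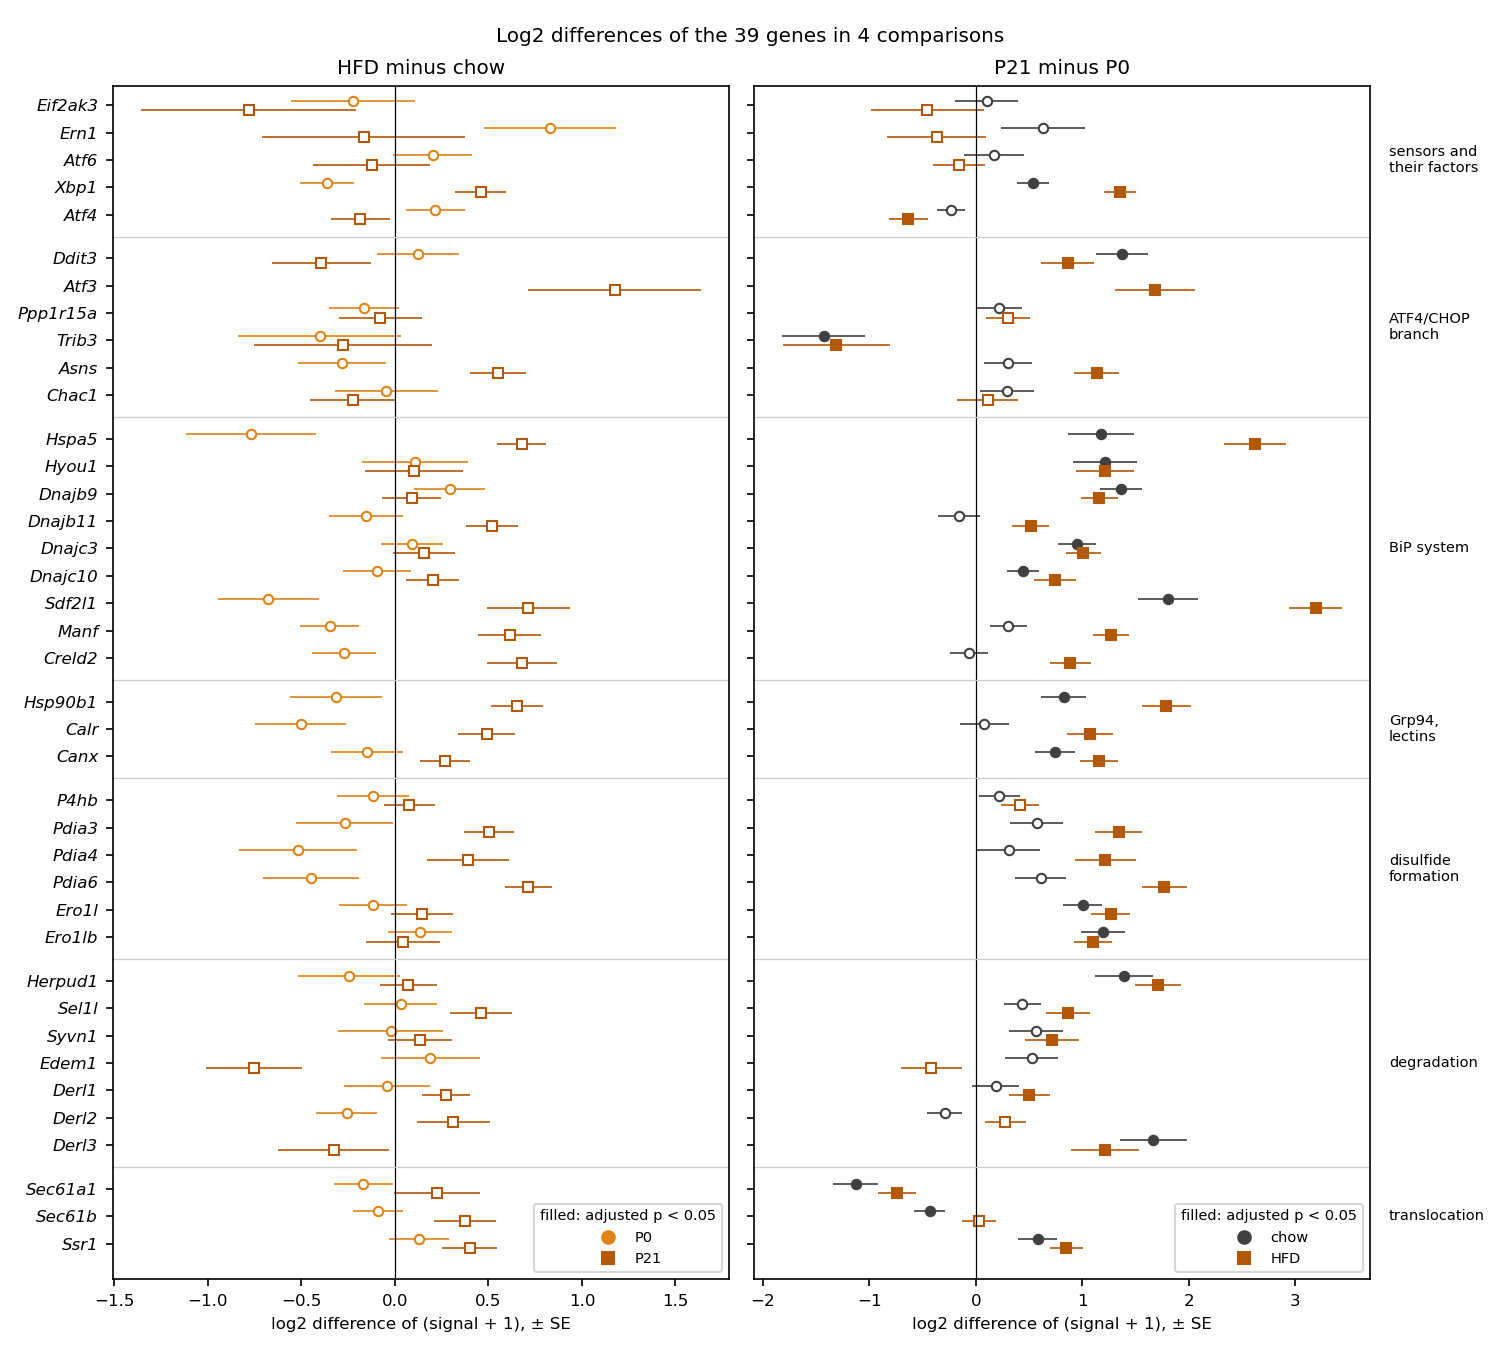
Log2 difference of (signal + 1) with its standard error for each of the 39 genes, HFD minus chow at P0 (circles) and P21 (squares) on the left and P21 minus P0 in chow (circles) and HFD (squares) on the right, grouped by role; filled symbols passed an adjusted p of 0.05 (limma). No symbol is filled on the left, whereas 18 chow and 30 HFD symbols are filled on the right; Atf3 and Derl3 were not tested at P0, nor Atf3 in the chow age comparison.

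Whether the rise with age differed between diets was tested as an interaction of diet and age on the full set of 17 libraries. None of the 39 members passed, where 4 of 15037 genes did (0.0266%), and edgeR called no member either, where it called 14 genes (0.0912%). At an unadjusted p under 0.05, 14 members had a larger rise in HFD and 1 a smaller, against 6.87% and 8.36% of all genes, and the median was 0.32 against -0.04. The smallest adjusted p-values were those of Manf (interaction 0.96 ± 0.24, adjusted p = 0.088) and Xbp1 (0.82 ± 0.20, 0.0897). The count moved when a single library was left out. Without HFD P0 replicate 5, 557 of 15022 genes passed (3.71%), and 9 members were among them: Hspa5 (1.77), Sdf2l1 (1.44), Pdia6 (1.37), Hsp90b1 (1.20), Calr (1.17), Asns (1.02), Creld2 (0.95), Manf (0.93) and Xbp1 (0.88), with adjusted p-values of 0.0167 to 0.0458. That replicate is the HFD newborn library with high Pomc and high ER genes described above. Chow P0 replicates 3, 4 and 5, in which Pomc and the ER genes were also high, stayed in that fit. Diet and this difference between newborn libraries cannot be told apart there.

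The sensors were expressed at low and scattered levels. Eif2ak3 (PERK) stood at 12.5, 10.3, 22.3, 19.4 and 24.6 in chow P0 and 14.03, 18.4, 22.6, 17.2 and 5.82 in HFD P0, and at 15.1, 18.9 and 21.3 in chow P21 and 5.79, 27.2, 2.78 and 20.7 in HFD P21. At P21, 2 HFD libraries lay below every chow library and another above them all, so the groups overlapped (log2 difference -0.78 ± 0.58, adjusted p = 0.52). Ern1 (IRE1) was near the limit of the values used, at 0.35, 1.36, 0.19, 2.71 and 1.48 in chow P0, 3.58, 1.48, 3.14, 1.76 and 3.77 in HFD P0, 1.68, 2.75 and 2.11 in chow P21 and 3.75, 0.50, 0.31 and 5.62 in HFD P21. The largest of its 4 pairwise differences was that of HFD from chow at P0 (0.83 ± 0.35, adjusted p = 0.472). Atf6 stood at 18.5, 17.9, 19.1, 13.1 and 15.1 in chow P0, 24.2, 16.9, 25.4, 14.5 and 17.3 in HFD P0, 12.2, 17.6 and 30.6 in chow P21 and 12.3, 18.5, 22.1 and 17.1 in HFD P21. The 4 groups overlapped in Atf6, and no test passed. The sign of these sensors' differences turned when a single library was left out: Eif2ak3 at P0 (0.07 without HFD replicate 5), Ern1 at P21 (0.13 and 0.20 without HFD replicates 2 and 3, and 0.21 with edgeR) and Atf6 at P21 (0.21 without chow replicate 3 and 0.03 without HFD replicate 1). It also turned with age in chow for Eif2ak3 (-0.06 without chow P0 replicate 2 and -0.004 without chow P21 replicate 3) and Atf6 (-0.17 without chow P21 replicate 3), with age in HFD for Eif2ak3 (0.07 without HFD P21 replicate 3), and in the interaction for Atf6 (0.01 without chow P21 replicate 3).

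Xbp1, the transcription factor activated by IRE1, rose with age in both diets. It stood at 151, 111, 155, 135 and 149.6 in chow P0 and 123, 92.9, 102, 98.9 and 126 in HFD P0, and at 211, 211 and 186 in chow P21 and 327, 255, 253 and 284 in HFD P21. Every P21 library was above every P0 library, and at P21 every HFD library was above every chow library. The rise with age was 0.53 ± 0.15 in chow (adjusted p = 0.0139) and 1.36 ± 0.15 in HFD (adjusted p = 7.18e-06). In chow it passed no longer without chow P21 replicate 1 (adjusted p = 0.0557) or 2 (0.0654). The diet difference was 0.46 ± 0.14 at P21 (adjusted p = 0.137) and -0.36 ± 0.14 at P0 (adjusted p = 0.432).

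Atf4, the effector of PERK, went the other way. It stood at 104, 103, 107, 94.9 and 112 in chow P0 and 143, 135, 123, 133 and 82.5 in HFD P0, and at 82.6, 89.1 and 94.0 in chow P21 and 93.3, 77.3, 77.8 and 64.8 in HFD P21. All chow P21 libraries lay below all chow P0 libraries, though the difference did not pass (-0.23 ± 0.13, adjusted p = 0.2). In HFD offspring Atf4 fell with age (-0.63 ± 0.18, adjusted p = 0.01), with an overlap through HFD P0 replicate 5, the lowest newborn library.

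Targets of ATF4 went in different directions. Ddit3 (CHOP), a transcription factor linked to cell death under lasting ER stress, rose with age, from 13.6, 12.5, 13.03, 10 and 12.97 to 49.2, 30.5 and 25.5 in chow (1.38 ± 0.24, adjusted p = 0.000787) and from 16.9, 17.6, 13.8, 12.1 and 9.04 to 28.9, 19.1, 33.1 and 22.8 in HFD (0.86 ± 0.25, adjusted p = 0.0105). At P21 its HFD and chow libraries overlapped, and the difference was below 0 (-0.39 ± 0.26, adjusted p = 0.474). Asns, asparagine synthetase, stood at 113, 100.4, 143, 163 and 223 in chow P0 and 118, 107, 104, 86.0 and 193 in HFD P0, and at 167, 179 and 183 in chow P21 and 268, 222, 323 and 233 in HFD P21. Its HFD P21 libraries all lay above the chow ones (0.55 ± 0.15, adjusted p = 0.117), and it rose with age in HFD (1.14 ± 0.21, adjusted p = 0.000525). The age difference in chow was 0.30 ± 0.22 (adjusted p = 0.314).

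Of the other ATF4-branch genes, Trib3, a pseudokinase that holds CHOP in check, fell with age in chow (-1.43 ± 0.39, adjusted p = 0.0118) and in HFD (-1.31 ± 0.50, adjusted p = 0.0409). Its levels were low, 4.56 ± 1.95 in chow P0 and 1.06 ± 0.806 in chow P21 (mean ± SD, n = 5 and 3), and 2 HFD P21 libraries were at 0. The chow call was lost without chow P21 replicate 3 (adjusted p = 0.0639), and the HFD call without HFD P0 replicate 1, 2 or 3 or HFD P21 replicate 1 or 3 (0.0751 to 0.122) and with edgeR (0.171). Atf3, a stress-induced transcription factor, was close to 0 at P0 and rose with age in HFD (1.68 ± 0.37, adjusted p = 0.00192). At P21 it stood at 1.65, 1.78, 4.44 and 6.49 in HFD and at 0.15, 0.83 and 1.98 in chow. The diets overlapped there, with a log2 difference of 1.17 ± 0.46 (adjusted p = 0.229). As for any gene this low, the fitted differences depend on the added 1. Ppp1r15a (GADD34), which restores translation after PERK signalling, and Chac1, a glutathione-degrading enzyme, passed in no comparison. Their group means ran from 16.6 to 22.1 for Ppp1r15a and from 14.4 to 17.7 for Chac1.

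Hspa5 (BiP), the Hsp70 chaperone of the ER lumen and the usual reporter of the response, rose with age in both diets. At P0 it stood at 221, 220.0, 443, 423 and 646 in chow replicates 1 to 5 and at 152, 184, 165, 171 and 508 in HFD replicates 1 to 5, so that chow replicates 3 to 5 and HFD replicate 5 lay above the other 6 libraries. At P21 it stood at 804, 868 and 761 in chow and 1505, 1159, 1315 and 1227 in HFD, with no overlap. The rise was 1.18 ± 0.31 in chow (adjusted p = 0.00978) and by 2.62 ± 0.29 in HFD (adjusted p = 6.63e-06). The diet difference at P21 was 0.68 ± 0.13 (adjusted p = 0.0649), and the interaction was 1.45 ± 0.47 (adjusted p = 0.161).

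Sdf2l1, which keeps BiP substrates from aggregating, had the largest rise with age of any member on the scale of log2(signal + 1) in both diets. In chow, edgeR gave a larger one for Derl3, a gene near 0 at P0 (3.32, adjusted p = 0.0256, against 1.85 for Sdf2l1). It stood at 13.5, 8.41, 12.8, 5.54 and 11.8 in chow P0 and 7.16, 4.53, 6.82, 4.40 and 6.90 in HFD P0, and at 36.0, 32.8 and 43.8 in chow P21 and 86.8, 66.8, 44.9 and 55.8 in HFD P21. Every HFD P21 library was above every chow P21 library, the closest pair being 44.9 and 43.8. The rise was 1.81 ± 0.28 in chow (adjusted p = 0.000331) and 3.20 ± 0.25 in HFD (adjusted p = 3.38e-07), and the diet difference at P21 was 0.71 ± 0.22 (adjusted p = 0.153).

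Manf and Creld2, secreted ER stress proteins, rose with age in HFD offspring and did not pass in chow offspring. Manf stood at 95.1, 67.2, 81.0, 66.4 and 64.7 in chow P0, 66.1, 60.9, 64.3, 47.9 and 52.5 in HFD P0, 107, 89.4 and 81.0 in chow P21 and 168, 120.5, 160.3 and 122 in HFD P21. It rose in HFD by 1.27 ± 0.17 (adjusted p = 3.11e-05), while the chow difference was 0.31 ± 0.17 (adjusted p = 0.185). Creld2 stood at 37.1, 26.8, 36.0, 30.8 and 29.2 in chow P0, 31.9, 26.2, 20.5, 27.3 and 25.9 in HFD P0, 28.1, 31.8 and 31.3 in chow P21 and 57.2, 46.5, 56.1 and 39.2 in HFD P21. It rose in HFD by 0.89 ± 0.19 (adjusted p = 0.00156), while the chow difference was -0.06 ± 0.18 (adjusted p = 0.82). At P21 all HFD libraries were above all chow libraries for both genes, with adjusted p-values of 0.121 and 0.12. The interaction did not pass for either (adjusted p = 0.088 and 0.109).

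Among the J-domain partners of BiP, Dnajb9 (ERdj4) and Dnajc3 (p58IPK) rose with age in both diets. Dnajb9 stood at 14.5, 24.7, 19.6, 22.9 and 21.1 in chow P0, 23.7, 30.6, 20.97, 23.9 and 26.9 in HFD P0, 54.1, 52.8 and 54.3 in chow P21 and 67.4, 52.1, 58.6 and 52.1 in HFD P21. Its rise was 1.37 ± 0.20 in chow (adjusted p = 0.000197) and 1.16 ± 0.18 in HFD (adjusted p = 0.000115), and the diets overlapped at both ages. Dnajc3 stood at 46.2, 43.9, 41.0, 39.7 and 32.5 in chow P0, 42.2, 34.2, 44.9, 41.5 and 55.4 in HFD P0, 62.7, 91.6 and 85.6 in chow P21 and 97.5, 80.9, 89.0 and 85.6 in HFD P21. It rose by 0.95 ± 0.18 and 1.01 ± 0.17 (adjusted p = 0.0013 and 0.000206). The interaction was -0.20 ± 0.25 for Dnajb9 and 0.06 ± 0.24 for Dnajc3, neither past the threshold (adjusted p = 0.726 and 0.922).

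Dnajb11 (ERdj3), a J-domain partner of BiP, stood at 84.3, 76.4, 86.7, 115 and 143 in chow P0, 80.4, 66.4, 89.0, 93.1 and 121 in HFD P0, 82.6, 91.3 and 90.5 in chow P21 and 142, 133, 119 and 114 in HFD P21. At P21 the diets did not overlap (0.52 ± 0.14, adjusted p = 0.116). It rose with age in HFD by 0.52 ± 0.17 (adjusted p = 0.0235), a call lost without HFD P0 replicate 1 or 2 or HFD P21 replicate 1 or 2 (0.0535 to 0.0728) and on the scale of a fixed sum (0.105). Dnajc10 (ERdj5), a J-domain reductase, rose by 0.45 ± 0.15 in chow (adjusted p = 0.032) and 0.74 ± 0.19 in HFD (adjusted p = 0.00579). The chow call was lost without chow P0 replicate 1 or 3 or chow P21 replicate 1 or 2 (0.0565 to 0.136), on the scale of a fixed sum (0.0554), with no intensity trend (0.0687) and with all 4 groups in one fit (0.0664).

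Hyou1 (Grp170), the nucleotide exchange factor of BiP, rose in both diets. It stood at 14.4, 31.8, 25.7, 32.0 and 12.4 in chow P0, 19.7, 29.1, 16.5, 23.2 and 31.3 in HFD P0, 49.9, 54.6 and 50.6 in chow P21 and 64.3, 78.6, 31.0 and 60.5 in HFD P21. HFD P21 replicate 3 was the lowest P21 library and lay within the P0 values. The rise was 1.22 ± 0.30 in chow (adjusted p = 0.00676) and 1.22 ± 0.27 in HFD (adjusted p = 0.00194).

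**Figure D4:**
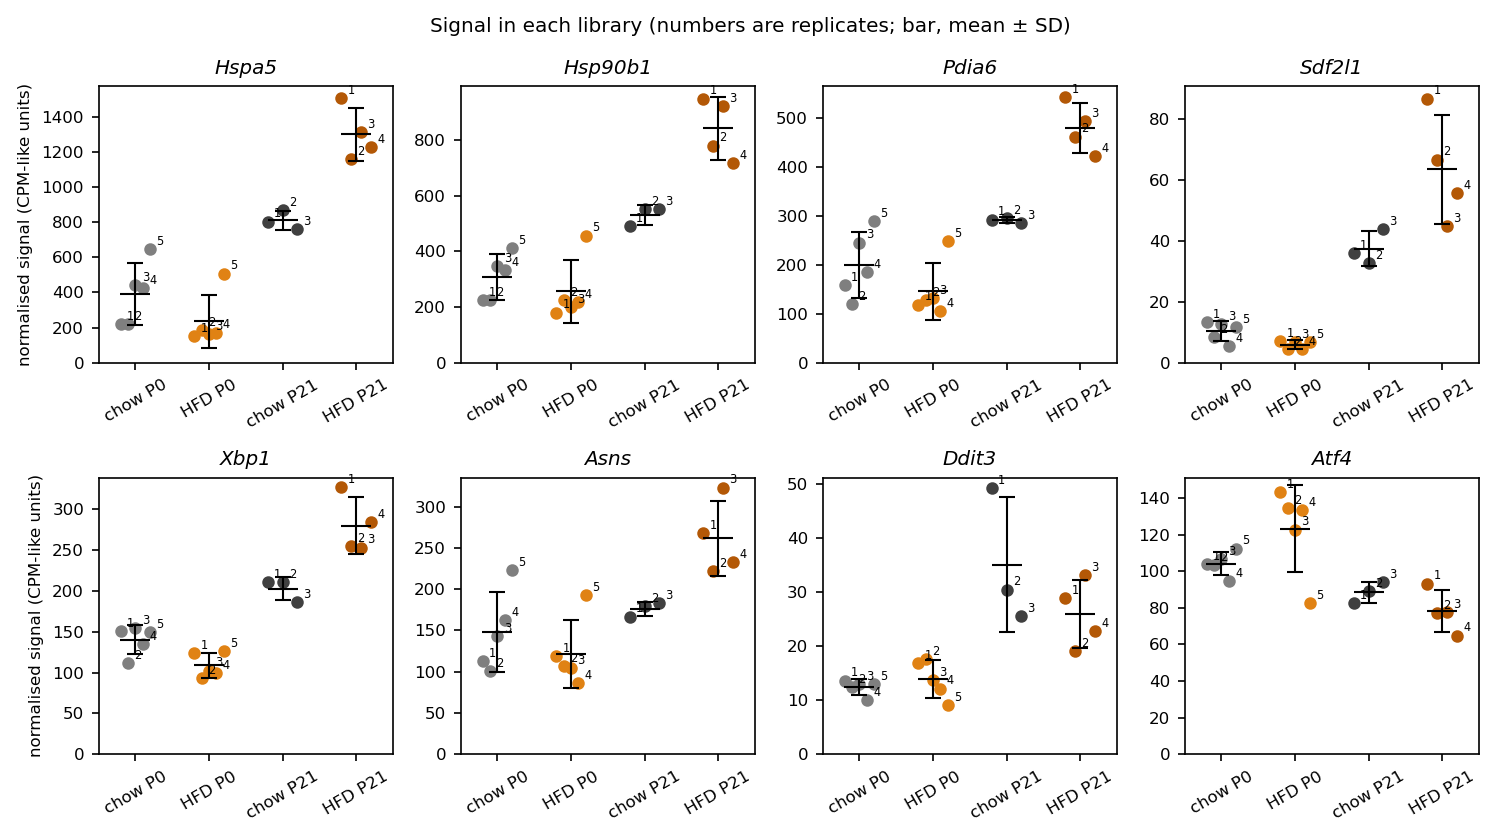
Signal of 8 members in each library (CPM-like units, linear axes from 0), by group, with replicate numbers beside the points and bars for mean ± SD (n = 5, 5, 3 and 4). HFD P21 libraries lie above all others for Hspa5 (1159 to 1505), Hsp90b1, Pdia6, Sdf2l1 and Xbp1, and at P0 HFD replicate 5 stands apart from its group in Hspa5, Hsp90b1 and Pdia6; the highest Ddit3 value is in chow P21.

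Hsp90b1 (Grp94), the ER Hsp90, stood at 224, 225, 349, 333 and 412 in chow P0 and 181, 224, 199, 219 and 457 in HFD P0, and at 491, 553 and 554 in chow P21 and 949.9, 781, 923 and 717 in HFD P21. It rose by 0.83 ± 0.21 in chow (adjusted p = 0.0078) and by 1.79 ± 0.23 in HFD (adjusted p = 2.82e-05). At P21 the diets did not overlap (0.65 ± 0.14, adjusted p = 0.0787). The lectin chaperones calreticulin (Calr) and calnexin (Canx) hold glycoproteins during folding. Calr stood at 316, 349.7, 437, 486 and 677 in chow P0, 237, 353, 220.4, 297 and 505 in HFD P0, 403, 430.2 and 568 in chow P21 and 693, 625, 731 and 560.4 in HFD P21. It rose with age in HFD (1.07 ± 0.22, adjusted p = 0.001), and the chow difference was 0.08 ± 0.23 (adjusted p = 0.816). Canx stood at 301, 343, 382, 469.6 and 497 in chow P0, 278, 347, 305, 353 and 529 in HFD P0, 602, 736 and 637 in chow P21 and 911, 742, 756 and 764 in HFD P21. Canx rose in both diets, by 0.74 ± 0.19 in chow (adjusted p = 0.0075) and 1.16 ± 0.18 in HFD (adjusted p = 0.000141). Thus of this pair the membrane-bound lectin passed in both diets and the soluble one in HFD, while the interaction passed for neither (adjusted p = 0.465 and 0.181).

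Pdia6, a disulfide isomerase that also binds IRE1 and PERK, was the member with the smallest p in the P21 diet comparison. It stood at 158, 119.8, 245, 185 and 289 in chow P0 and 119, 128, 131, 105 and 248 in HFD P0, and at 292, 296 and 284 in chow P21 and 542, 462, 493 and 421 in HFD P21. All 4 HFD P21 libraries lay above the 3 chow P21 libraries (0.71 ± 0.13). It rose with age in HFD (1.77 ± 0.22, adjusted p = 1.55e-05), and the chow difference was 0.61 ± 0.24 (adjusted p = 0.0638). Pdia3, the isomerase that works with calnexin and calreticulin, stood at 285, 255, 391, 461 and 618 in chow P0, 241, 282, 288, 283 and 571 in HFD P0, 569, 562 and 574 in chow P21 and 968, 703, 815 and 759 in HFD P21. It stood higher in HFD at P21, with no overlap of diets at P21 (0.50 ± 0.13, adjusted p = 0.114) and a rise with age in HFD (1.35 ± 0.22, adjusted p = 0.000205), while the chow difference was 0.57 ± 0.25 (adjusted p = 0.0906).

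Pdia4, another isomerase, stood at 38.9, 49.3, 100.05, 74.7 and 102 in chow P0, 48.0, 32.4, 33.2, 47.1 and 96.7 in HFD P0, 74.5, 76.7 and 107 in chow P21 and 146, 118, 74.3 and 119.6 in HFD P21. Its diets overlapped at both ages, and it rose with age in HFD (1.22 ± 0.29, adjusted p = 0.00312). P4hb, the founding isomerase and a subunit of prolyl 4-hydroxylase, passed in no comparison, with group means of 227 to 298. The oxidases Ero1l and Ero1lb, which recharge the isomerases, rose in both diets. Ero1l stood at 31.9, 46.0, 45.7, 55.3 and 41.5 in chow P0, 39.5, 38.6, 47.0, 29.8 and 47.6 in HFD P0, 95.9, 85.7 and 83.6 in chow P21 and 82.8, 85.6, 109 and 118 in HFD P21 (rises of 1.01 ± 0.18 and 1.27 ± 0.18, adjusted p = 0.000922 and 7.46e-05). Ero1lb stood at 17, 17.3, 15.9, 21.1 and 16.4 in chow P0, 18.1, 20.1, 19.9, 17.5 and 20.7 in HFD P0, 45.8, 31.5 and 48.8 in chow P21 and 39.1, 41.6, 39.8 and 50.5 in HFD P21 (rises of 1.20 ± 0.21 and 1.11 ± 0.18, adjusted p = 0.0007 and 0.000168). For both oxidases the diets overlapped at each age, and every P21 library was above every P0 library.

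Of the degradation genes, 2 of 7 rose with age in chow and 5 of 7 in HFD, where 18.3% and 24.7% of all genes did, and none passed between diets. Herpud1, a membrane scaffold of the degradation complex, stood at 51.8, 54.0, 110.4, 99.6 and 126 in chow P0, 68.6, 63.4, 54.4, 58.0 and 119 in HFD P0, 240.4, 219 and 199 in chow P21 and 226, 198, 292 and 215 in HFD P21. It rose by 1.39 ± 0.28 in chow (adjusted p = 0.00173) and 1.71 ± 0.22 in HFD (adjusted p = 2.17e-05), and at P21 its diets overlapped (0.07 ± 0.15). Derl3, a derlin of the retrotranslocation channel, was almost absent at birth, at 0.03, 0.76, 0.55, 0.16 and 0.0 in chow P0 and 0.88, 0.0, 0.0, 1.16 and 0.23 in HFD P0, and stood at 3.19, 2.89 and 2.99 in chow P21 and 2.77, 2.35, 1.73 and 2.06 in HFD P21. It rose in both diets (1.67 ± 0.32 and 1.22 ± 0.32, adjusted p = 0.00126 and 0.00559), but edgeR did not call the HFD rise (adjusted p = 0.0996).

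Derl2 stood at 56.6, 57.2, 51.4, 44.3 and 52.4 in chow P0, 37.9, 41.7, 50.9, 34.6 and 55.5 in HFD P0, 47.1, 44.8 and 36.2 in chow P21 and 40.6, 62.1, 51.7 and 60.3 in HFD P21, and passed in no comparison. Edem1, a mannosidase-like factor that marks glycoproteins for degradation, was the member with a difference below 0 at an unadjusted p under 0.05 in the P21 diet comparison. Its group means were 18.5 ± 3.44 in chow P21 (mean ± SD, n = 3) and 10.6 ± 2.32 in HFD P21 (n = 4), without overlap (-0.75 ± 0.26, adjusted p = 0.18). Sel1l, Syvn1 (HRD1) and Derl1, the core of the ligase complex, rose with age in HFD by 0.87, 0.72 and 0.50 (adjusted p = 0.00339, 0.0284 and 0.0436). The call of Syvn1 was lost without HFD P0 replicate 1, 2 or 4 or HFD P21 replicate 1, 2 or 4 (0.0585 to 0.0837). That of Derl1 was lost when any HFD library but P0 replicate 5 was left out (0.0593 to 0.112) and with no intensity trend (0.0804). Neither was called by edgeR (0.0538 and 0.0730) or on the scale of a fixed sum (0.0742 and 0.136).

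The translocation genes went different ways. Sec61a1, the channel subunit through which new proteins enter the ER, fell with age in both diets, standing at 143, 156, 164, 156 and 194 in chow P0, 132, 136, 133, 125 and 208 in HFD P0, 47.6, 87.9 and 94.7 in chow P21 and 81.9, 96.6, 97.9 and 70.6 in HFD P21. Every P21 library was below every P0 library (-1.13 ± 0.21 in chow and -0.74 ± 0.18 in HFD, adjusted p = 0.00111 and 0.00357). Sec61b, a small subunit of that channel, fell with age in chow (-0.43 ± 0.14, adjusted p = 0.0328), a call lost without chow P0 replicate 1 or 4 or chow P21 replicate 2 or 3 (0.0531 to 0.131) and with no intensity trend (0.0711). Ssr1, the alpha subunit of the TRAP complex beside the channel, rose in chow (0.58 ± 0.18, adjusted p = 0.0241) and in HFD (0.85 ± 0.15, adjusted p = 0.000403). The chow call of Ssr1 was lost without chow P0 replicate 3 or chow P21 replicate 1 or 2 (0.0524 to 0.116) and with no intensity trend (0.0566).

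A further 96 genes of the same pathway, in 5 lists, placed the members in context. At P0, of 95 tested, only Mogs, the glucosidase that begins trimming of N-glycans, passed: it fell in HFD, from 27.4, 37.4, 27.4, 29.9 and 36.7 in chow to 14.7, 9.03, 12.5, 14.2 and 6.90 (log2 difference -1.43 ± 0.22, adjusted p = 0.0119). That call was lost without chow replicate 5 (0.0592) and with all 4 groups in one fit (0.149). At P21 none of 95 tested passed. The nearest by p in each list were Eif2s1 (0.49) and Wfs1 (0.53) among 15 sensor-processing and ER factors tested, Psat1 (-0.72) and Slc7a5 (-0.61) among 19 ATF4 and CHOP targets, Serp1 (-0.83) and Sil1 (0.51) among 22 folding genes, Vcp (0.32) and Ubxn4 (0.26) among 18 degradation genes, and Rpn2 (0.53) and Rpn1 (0.42) among 21 translocon, signal peptidase and oligosaccharyltransferase genes. List medians were 0.02, -0.18, 0.22, 0.08 and 0.30 in that order, and in the list of other ATF4 and CHOP targets 13 of 19 lay below 0.

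With age in chow, where 18.3% of all genes rose and 17.7% fell, 8 of the 22 other folding genes rose and 1 fell, with Fkbp2 (1.25) and Fkbp14 (1.56), prolyl isomerases of the ER, at the smallest p. Of 18 degradation genes 6 rose and none fell (Erlec1 1.27, Os9 0.81, both lectins of degradation), and of 21 translocon and glycosylation genes 6 rose and 2 fell (Ssr4 1.16, Sec62 0.88). Of 16 sensor-processing and ER factors 5 rose and 2 fell (Map3k5 1.51, Tmbim6 0.74). Other ATF4 and CHOP targets had no rise and 3 falls among 18 (Bbc3, a pro-apoptotic gene, -2.50, and Slc7a5, an amino acid transporter, -1.22). In HFD the counts of rises and falls were 10 and 4 of 22, 6 and 0 of 18, 14 and 1 of 21, 5 and 3 of 15, and 1 and 7 of 18, in the same order. Of all genes tested, 24.7% rose and 26.2% fell in HFD.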

How the data were processed

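RNA pulled down with HA-tagged ribosomes was sequenced from 17 samples as 50-base single reads (Nextera XT), per the labels' protocols. FastQC, TopHat2 2.0.13, Picard 1.80, HTSeq 0.6.1, edgeR and build mm10 are named, per the submitters' processing notes, with settings, strand and gene filter not given in the sources used here. Deposited values are normalised signal with 2 decimals for 15355 genes. From the values, each is a whole read count divided by an effective library size: 99.99% to 100% of non-zero values per library were whole within 0.0051 units, against 22.2% to 37.0% by chance, and 6 of 17 libraries also met a tighter tolerance of 0.1 read.

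Each comparison was fitted on its own libraries with limma 3.58.1 (R 4.3.3, intensity trend) on log2(value + 1), over genes that exceeded 1 in a number of libraries no lower than the size of the smaller group, with Benjamini-Hochberg adjustment at 0.05, two-sided. The interaction used all 17 libraries. edgeR 4.0.16 (quasi-likelihood) on the recovered reads was an alternative, since the values are not counts as deposited. The limma fits of the 4 pairwise comparisons were tested on simulated data, and the interaction and edgeR fits were not. Levels per kb used GENCODE M21 lengths, and promoters came from RefSeq (GRCm38.p6). The members and all lists were chosen with earlier results of these data known. Values per library are given for Eif2ak3, Ern1, Atf6, Xbp1, Atf4, Hspa5, Ddit3 and the 10 members of smallest p in each of the 4 pairwise comparisons; other members past the threshold are named with their difference, and from each of 5 wider lists the 2 genes of smallest p at P21 between diets and with age in chow. Hsph1, Junb, Cartpt, Gjb6, Pomc and Mogs were named after their values were seen. The protein endings foreseen among the sequence features were not analysed here.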

Additional observations from a re-analysis of the deposited data

Results flagged for a closer look

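Dixon's test was run on the 39 genes in the 3 groups of 4 or 5 libraries, 117 sets of values, of which chance marks about 1 in 20. It marked 13. Of these, 10 were a high value in HFD P0 replicate 5: Hspa5 (507.82, the other 4 libraries at 152.04 to 183.54), Hsp90b1 (457.15), Pdia3 (570.81), Pdia6 (248.05), Pdia4 (96.67), P4hb (327.39), Dnajc10 (143.1), Herpud1 (119.22), Sel1l (243.54) and Sec61a1 (208.11). This is the newborn HFD library in which Pomc (1057), the granule genes and the heat-shock genes were also high. The part of its tagged-cell RNA in these values was not tested. The remaining 3 were Ero1lb in chow P0 replicate 4 (21.12), Atf3 in HFD P0 replicate 2 (1.19) and Canx in HFD P21 replicate 1 (910.69).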

How the results depend on the processing

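Each alternative changed 1 choice at a time, except edgeR, which has its own filter, normalisation and scale. For HFD against chow at P0, 41 genes passed as reported, 10 with all 4 groups in one fit and 18 (without chow replicate 5) to 135 (without HFD replicate 5) when a library was left out; no member passed in any of these. At P21, 25 genes passed as reported, 16 with no filter on low values, 1 with no intensity trend, 42 with a robust prior, 13 with edgeR, and 3 to 51 when a library was left out (3 without HFD replicate 1, 51 without chow replicate 1). Members past the threshold there numbered 1 with a value minimum of 5 and 2 with a robust prior, and none when a library was left out. The sign of Ern1 at P21 turned with edgeR (0.21). For the interaction, 4 genes passed as reported, 9 with scaling to a fixed sum, 2 with no intensity trend, 14 with edgeR and 2 to 557 when a library was left out, with 0 to 9 members. Members past the threshold with age numbered 14 to 22 in chow and 26 to 32 in HFD over all alternatives. Over all genes, 3912 to 5161 passed in chow and 6417 to 8119 in HFD when a library was left out.

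When a library was left out, the difference of Eif2ak3 ran from -0.39 to 0.069 at P0, from -0.064 to 0.23 with age in chow and from -0.90 to 0.066 with age in HFD. That of Atf6 ran from -0.42 to 0.21 at P21, from -0.17 to 0.47 with age in chow and from -0.62 to 0.012 in the interaction, and that of Ern1 from -0.58 to 0.20 at P21. The causes were not tested.

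Deviations of libraries with the same replicate number correlated at -0.18 to 0.51 at P0 (over 0.1 in 3 of 5 pairs) and at -0.10 to 0.13 in the other comparisons. Since not every pair was over 0.1, the numbers were not taken to pair samples. With the replicate number as a block, 104 genes passed at P0, 3 at P21 and 133 of 15037 in the interaction. Among these 133 were 5 members (Xbp1, Hspa5, Manf, Sdf2l1 and Pdia6, adjusted p of at most 0.0390). The block ended the P21 calls of Hsph1 (0.0558), Gjb6 (0.0503) and Junb (0.0847) and the age calls of Trib3 (0.0656 in chow, 0.0572 in HFD) and, in chow, Sec61b (0.0578). Depth limits the genes near 0 (Atf3, Derl3, Ern1, Trib3), where 3 reads allow up to 0.138 units, and with 3 chow libraries at P21 the spread is poorly known.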
